A study of Mus musculus with 3 samples.

Results

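The genes described here are 10 genes of antigen presentation on major histocompatibility complex (MHC) class I molecules. They were chosen by gene symbol and role: the class I light chain B2m, the heavy chains H2-K1 and H2-D1, the peptide transporter genes Tap1 and Tap2, the trimming and loading genes Erap1, Tapbp, Calr and Pdia3, and the transactivator Nlrc5. Of the 10, 8 had a probe set that the platform annotation assigns to that gene alone, as 19938 genes on the array did, and a gene with several was represented by the brightest one over the arrays. H2-K1 and H2-D1 lay only on probe sets that list both genes and a further locus, and these 2 probe sets are given apart. Expression was measured on 3 Affymetrix arrays, 1 for each of 3 cohorts of littermate mice. All cohorts were wild-type C57BL/6 mice aged 5 to 6 weeks with no treatment named, and the RNA came from CD4+ CD8+ double-positive (DP) thymocytes sorted on beads for CD8 and then for CD4. The number of mice in a cohort is not given in the sources used here. There was 1 group, so the comparisons below are between cohorts and between gene lists.

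Class I molecules present peptides from inside the cell to CD8 T cells. Proteasomes cut proteins into peptides, the TAP transporter carries these into the endoplasmic reticulum, aminopeptidases trim them, and a loading complex of tapasin, calreticulin and the disulfide isomerase ERp57 places them on a heavy chain paired with beta-2 microglobulin. NLRC5 acts as a transcriptional coactivator of class I genes, in the way CIITA does for class II genes. In the thymus, DP cells are selected on peptide and MHC displayed mainly by cortical epithelium, while thymocytes themselves carry less class I on their surface than mature T cells do.

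Values are log2 expression values as deposited. The background limit of each array was taken from 95 genes of unrelated organs, as their 95th percentile, and lay at 7.405, 7.503 and 7.416 on arrays 1, 2 and 3. Genes over it are called above background. Signal also depends on how well each probe set binds, so no gene's level is ranked against another's. The DP label was borne out by its markers, with all 11 measured DP genes above background on every array, among them Rag1, Rag2, Cd4 and Cd8a. Array 1 stood apart from the others. Of the 11 DP genes 9 were lowest on it, against 39.3% of all genes. The 11 had mean deviations from the 3-array mean of -0.13, 0.067 and 0.065 on arrays 1, 2 and 3, and Rag2 had 8.69, 9.51 and 9.54. Differences above 1 log2 unit were seen for 31 probe sets between arrays 2 and 3, but for 139 and 123 when array 1 was set against array 2 or array 3, out of 28944. All 12 immediate-early genes examined were highest on array 1, against 34.5% of all genes. Fos had 9.39, 7.86 and 8.27 and Jun had 11.01, 9.65 and 9.56. Xist, which silences an X chromosome in female cells, was above background on array 1 alone, and the Y-linked gene Kdm5d on arrays 2 and 3 alone. The labels name no batch, so batch and cohort cannot be told apart.

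All 8 class I genes with a probe set of their own were above background on all 3 arrays, against 40.8% of all genes (8125 of 19938). They exceeded the limit by 1.92 to 4.46 log2 units on every array, and the 2 shared heavy chain probe sets did so as well. The median over the 8 genes was 9.96, 10.14 and 10.18 on arrays 1, 2 and 3, where the median over all genes was 6.84, 6.86 and 6.85. In bulk RNA, fewer cells of a type and less RNA per cell cannot be told apart.

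**Figure D1:**
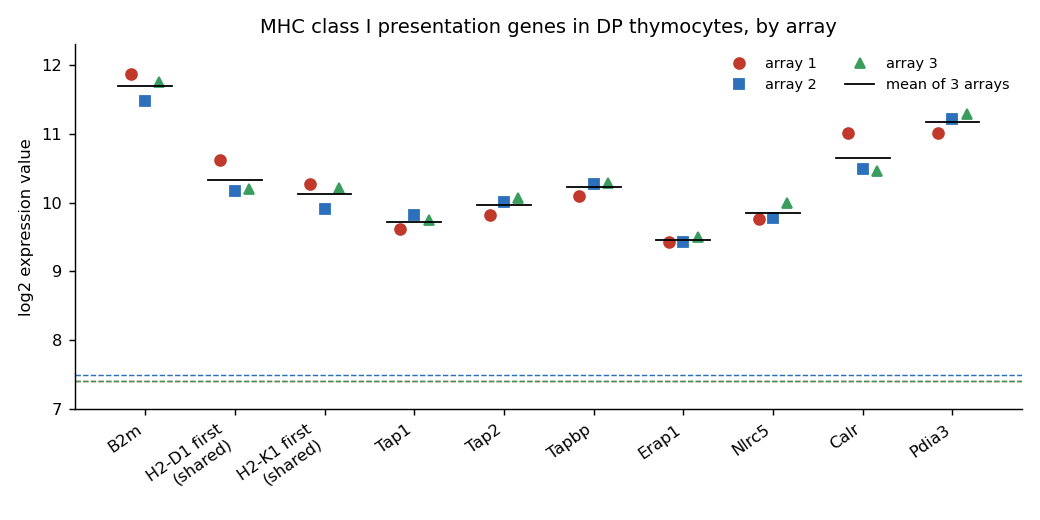
Log2 expression value (vertical axis) of each class I gene on arrays 1, 2 and 3, with the mean of the 3 arrays as a black bar and each array's background limit as a dashed line in its colour. The entries marked shared are the probe sets that list H2-D1 or H2-K1 first, and every point lies at least 1.92 log2 units above its limit.

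B2m encodes beta-2 microglobulin, the light chain that every classical class I molecule needs to reach the surface. Its values were 11.86, 11.48 and 11.75 on arrays 1, 2 and 3, with a mean of 11.70 ± 0.20 (SD, n = 3 here and below). Cohort 2 was the lowest, 1.30-fold below cohort 1. Array 1 exceeded the mean of the others by 0.245 log2 units, and by 0.13 after quantile normalization. The SD was 1.93 times that fitted for probe sets of the same level (0.10), and it did not pass the variance test described below (limma, unadjusted p = 0.11, adjusted p = 0.99).

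The heavy chains H2-K1 and H2-D1 hold the peptide groove. The probe set that lists H2-D1 first, together with LOC547349 and H2-K1, had values of 10.61, 10.16 and 10.20, a mean of 10.32 ± 0.25. The one that lists H2-K1 first, with the same other genes, had 10.27, 9.90 and 10.21, a mean of 10.13 ± 0.20. Both were highest on array 1 and lowest on array 2, as B2m was. They differed on array 3, where the first was close to array 2 and the second close to array 1. Neither passed the variance test (limma, unadjusted p = 0.056 and 0.11, adjusted p = 0.99 for each). Since each probe set can take up RNA of both genes, these values give the heavy chains jointly.

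B2m and both shared probe sets had the same highest and the same lowest cohort, so the promoters of these genes are shown. A further reason is that H2-K1 and H2-D1, which the arrays cannot separate, are near copies in their promoters as well. Both shared probe sets list the same genes, so they are not separate matches to B2m. Few orders are possible with 3 arrays, and the probe sets that list Rps3a1, given below, had the same high and low cohorts. Of all 19938 genes, 34.5% were highest on array 1 and 5546 were lowest on array 2. The share with both was not counted, a limit wherever an order is set beside that of B2m below. Neither B2m nor the shared heavy chain probe sets passed the variance test, and whether the like order reflects common regulation was not tested. The sequences are from RefSeq, build GRCm38.p6, from 250 bases before to 50 bases after a gene's start. They matched 8 of the 10 genes, H2-K1 and H2-D1 among them, while Tap2 and Nlrc5 had no window. These 8 are thus not the 8 genes with a probe set of their own. Capitals mark matches on either strand to a core for interferon regulatory factors, AANNGAAA, to the longer interferon-stimulated element GAAANNGAAA, which contains that core, and to an NF-kappaB type site, GGGNNTTNCC. The B2m window is chr2:122147437-122147736 on the plus strand, that of H2-K1, the first of 2 starts listed, is chr17:34000298-34000597 on the minus strand, and that of H2-D1 is chr17:35262844-35263143 on the plus strand.

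B2m: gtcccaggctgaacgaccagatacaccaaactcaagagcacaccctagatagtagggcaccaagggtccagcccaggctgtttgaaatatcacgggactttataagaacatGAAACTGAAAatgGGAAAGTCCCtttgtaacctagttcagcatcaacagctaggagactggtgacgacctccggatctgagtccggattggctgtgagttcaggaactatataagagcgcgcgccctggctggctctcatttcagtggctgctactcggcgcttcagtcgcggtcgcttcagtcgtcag
H2-K1: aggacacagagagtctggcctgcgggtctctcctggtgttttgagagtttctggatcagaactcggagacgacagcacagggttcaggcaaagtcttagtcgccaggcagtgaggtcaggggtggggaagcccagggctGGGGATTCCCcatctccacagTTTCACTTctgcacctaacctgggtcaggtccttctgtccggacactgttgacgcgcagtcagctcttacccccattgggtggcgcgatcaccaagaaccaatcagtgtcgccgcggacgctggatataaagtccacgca
H2-D1: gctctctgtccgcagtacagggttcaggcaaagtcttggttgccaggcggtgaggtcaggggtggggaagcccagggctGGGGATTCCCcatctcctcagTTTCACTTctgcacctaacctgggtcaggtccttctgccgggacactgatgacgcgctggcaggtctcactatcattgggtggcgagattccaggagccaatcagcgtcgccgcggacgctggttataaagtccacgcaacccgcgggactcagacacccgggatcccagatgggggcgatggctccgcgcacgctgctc

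Aligned locally, the H2-K1 and H2-D1 windows were identical at 206 of 228 positions (90.4%), and the H2-K1 window holds the same 10-base NF-kappaB type match and 8-base interferon core as that of H2-D1. The NF-kappaB type motif was found in all 3 windows and in 4.79% of all 32851 promoter windows. The interferon core was likewise in all 3 and in 23.9% of all windows, so it is common. It was in 5 of the 8 class I windows, the others being those of Erap1 and Calr. The longer interferon element was in the windows of B2m and Erap1 and in 3.44% of all windows. Such matches describe these letters only. Of the motifs of the factors that the wider project mapped in thymocytes, the ETS motif CCGGAAG was in none of the 8 class I windows and in 8.86% of all windows. The RUNX motif TGTGGT was in the Tapbp window alone of the 8 and in 16.8% of all, and the E box CAGNTG was in 4 of the 8 and in 51.4% of all.

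Tap1 and Tap2 encode the subunits of the peptide transporter. Tap1 had values of 9.61, 9.82 and 9.74, a mean of 9.72 ± 0.11, and Tap2 had 9.82, 10.01 and 10.07, a mean of 9.97 ± 0.13. Both were lowest on array 1, the reverse of B2m, with differences of -0.17 and -0.22 log2 units from the mean of the other arrays. Their SDs were 1.02 and 1.25 times those fitted for their level. Both genes lie beside immunoproteasome genes on chromosome 17, in the order Psmb9, Tap1, Psmb8, Tap2. The promoter windows of Tap1 and Psmb9 run in opposite directions and share 275 of their 300 bases. Psmb9 had 9.82, 9.68 and 9.67 and was highest on array 1, where Tap1 was lowest. Neither passed the variance test (limma, adjusted p = 0.99 for each).

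Erap1 encodes the aminopeptidase that trims peptides in the endoplasmic reticulum. It was the steadiest of the 8 genes, with 9.43, 9.42 and 9.50, a mean of 9.45 ± 0.04, and 84.1% of genes above background had an SD at least as large. Its values lay within 0.08 log2 units of each other. Its promoter, at chr13:74639603-74639902 on the plus strand, is shown because it holds the interferon element (in capitals) over the start itself. The element lies at positions -4 to 5 counted from the start as 0. Whether it bears on the values was not tested.

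Erap1: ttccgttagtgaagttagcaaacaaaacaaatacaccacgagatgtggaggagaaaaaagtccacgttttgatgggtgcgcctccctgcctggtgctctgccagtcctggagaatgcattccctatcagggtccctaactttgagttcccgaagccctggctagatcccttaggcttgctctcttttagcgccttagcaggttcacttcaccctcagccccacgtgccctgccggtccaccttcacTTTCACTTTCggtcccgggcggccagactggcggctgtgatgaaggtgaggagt

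Tapbp encodes tapasin, which bridges the heavy chain and the transporter. Its own probe set had 10.10, 10.27 and 10.29, a mean of 10.22 ± 0.10, lowest on array 1. A further 2 probe sets list Tapbp together with the ribosomal protein gene Rps3a1. They had 12.74, 12.44 and 12.64 and 12.45, 12.07 and 12.34, highest on array 1, where the gene's own probe set was lowest, and lowest on array 2. They were not counted as Tapbp.

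Calr and Pdia3 encode calreticulin and ERp57, general folding factors of the endoplasmic reticulum that also serve the loading complex. Calr had values of 11.01, 10.48 and 10.46, a mean of 10.65 ± 0.31. Array 1 was the highest by 1.45-fold against the mean of the other arrays, which differed by 0.02 log2 units. The SD of Calr was 2.98 times that fitted for its level, and 2.83% of genes above background had one at least as large. Pdia3 had 11.01, 11.21 and 11.29, a mean of 11.17 ± 0.14, and was lowest on array 1. The 2 partners thus differed in opposite directions there, and this difference between them was not tested.

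Cohort to cohort variation was tested with limma as the variance of each probe set over the arrays against that of probe sets of the same level. None of the 8 class I genes passed at an adjusted p under 0.05, with the lowest adjusted p at 0.99, against 6 of 28944 probe sets (0.0207%). By the same limma test without adjustment, Calr alone had p under 0.05 (unadjusted p = 0.025, adjusted p = 0.99), where 4.66% of all probe sets did. Nothing is read from a single gene of 8. Without array 1 the SD of Calr was 0.014, and an unadjusted p under 0.05 was then found for B2m and Nlrc5 and not for Calr (limma, lowest adjusted p = 0.665). Of the 8 genes, 2 were highest on array 1, against 34.5% of all genes, and 5 were lowest on it, against 39.3%. The group had mean deviations from the 3-array mean of -0.015, -0.032 and 0.047. With the 2 shared heavy chain probe sets added, a choice made after the data were seen, these were 0.031, -0.064 and 0.034.

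**Figure D2:**
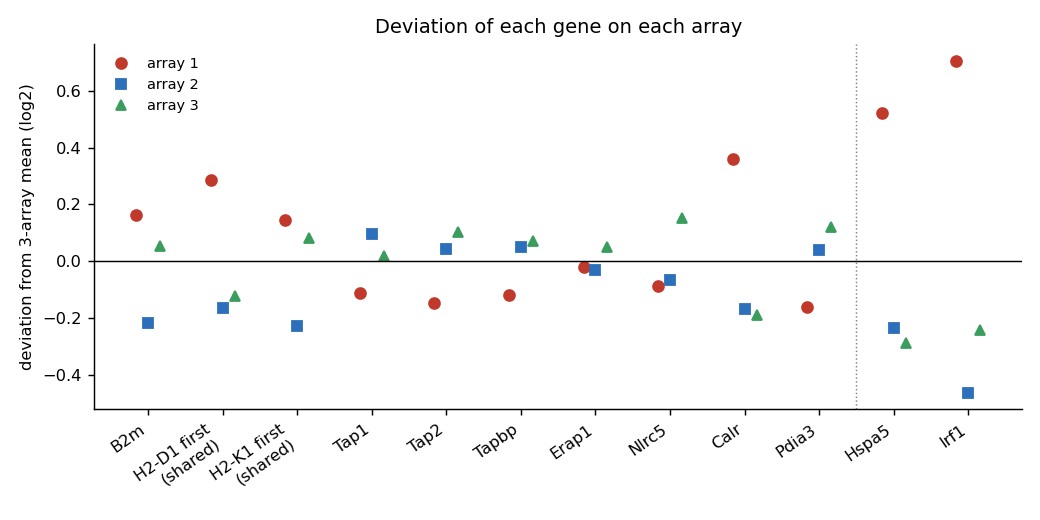
Deviation of each gene's log2 value from its own 3-array mean (vertical axis) on arrays 1, 2 and 3, for the class I genes and, right of the dotted line, for Hspa5 and Irf1. B2m, the shared heavy chain probe sets and Calr lie highest on array 1, with Calr 0.36 above its mean, while Tap1, Tap2, Tapbp, Nlrc5 and Pdia3 lie lowest there.

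Nlrc5, the transactivator, has 19 probe sets, which allows a closer look at 1 gene. The brightest had 9.76, 9.78 and 10.00, a mean of 9.85 ± 0.13, highest on array 3. Of the 19, 11 were above background on all arrays, 4 on some and 4 on none, with means from 6.80 to 9.85. The brightest was not typical in its cohort order, since 15 of the 19 were highest on array 1, 2 on array 2 and 2 on array 3. Among all genes, 34.5% were highest on array 1. Array 1 exceeded the mean of the other arrays in 16 of 19, and the same count was found after quantile normalization and after median centring. Sorted values of the arrays already differed by at most 0.15, so these steps could change little and the like count adds no support. The average over the 19 was 7.94, 7.71 and 7.76, so by that measure Nlrc5 had the order of B2m. None of the 19 passed the variance test (limma, lowest adjusted p = 0.99), and 3 had an unadjusted p under 0.05, where 4.66% of all probe sets did. These probe sets share RNA and arrays and are not replicates.

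**Figure D3:**
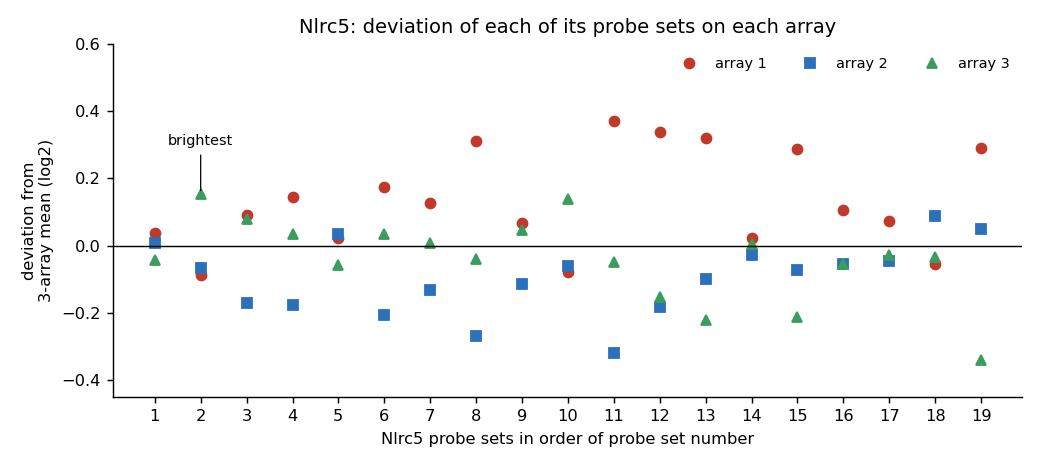
Deviation of the log2 value from the 3-array mean (vertical axis) for each of the 19 Nlrc5 probe sets in order of probe set number, on arrays 1, 2 and 3. Array 1 is the highest in 15 of 19, while the brightest probe set, which represents the gene, is highest on array 3.

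The wider class I pathway was examined through 4 lists, of which 54 of 66 measured genes were above background on all arrays, against 40.8% of all genes. None of the 66 passed the variance test. An unadjusted p under 0.05 was found for 4 (limma), where 4.66% of all probe sets had one, and nothing is read from the 4.

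Peptide supply genes were nearly all detected, with 15 of 18 above background. The immunoproteasome subunits Psmb8, Psmb9 and Psmb10 had means of 10.67 ± 0.10, 9.72 ± 0.08 and 9.20 ± 0.18, and the activator subunit Psme1 had 10.22 ± 0.16. Psmb11, the catalytic subunit of the thymoproteasome of cortical epithelium, had 6.65, 6.70 and 7.03 and was above background on no array. The peptidase gene Thop1 was above background on no array, and Lap3 on array 1 alone.

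Of the partners of class I folding in the endoplasmic reticulum, 16 of 17 were above background, the exception being Marchf9, a ubiquitin ligase gene. Canx, the calnexin gene, had 11.39, 11.44 and 11.52, Tapbpl, which encodes the tapasin-related editor TAPBPR, had 8.77, 8.85 and 8.85, and the translocon gene Sec61a1 had 10.59, 10.66 and 10.60. These were nearly level across cohorts. Hspa5, the gene of the chaperone BiP, had 11.74, 10.98 and 10.93. It was highest on array 1 by 1.72-fold, in the direction of Calr, and it did not pass the variance test over all probe sets (limma, unadjusted p = 0.0054, adjusted p = 0.90).

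Calr and Hspa5 are both textbook targets of the response to unfolded proteins, and their promoters are shown for the element of that response. Capitals mark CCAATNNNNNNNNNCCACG, the endoplasmic reticulum stress element, on either strand. It overlaps a CCAAT box, which it contains. The Calr window is chr8:84846882-84847181 on the minus strand and the Hspa5 window is chr2:34771840-34772139 on the plus strand.

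Calr: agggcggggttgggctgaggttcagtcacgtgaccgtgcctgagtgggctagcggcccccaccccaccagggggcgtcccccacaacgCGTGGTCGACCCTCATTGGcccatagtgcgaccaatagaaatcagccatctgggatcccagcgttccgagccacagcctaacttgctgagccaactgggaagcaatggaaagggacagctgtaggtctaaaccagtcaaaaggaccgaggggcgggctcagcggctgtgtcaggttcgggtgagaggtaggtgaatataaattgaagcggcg
Hspa5: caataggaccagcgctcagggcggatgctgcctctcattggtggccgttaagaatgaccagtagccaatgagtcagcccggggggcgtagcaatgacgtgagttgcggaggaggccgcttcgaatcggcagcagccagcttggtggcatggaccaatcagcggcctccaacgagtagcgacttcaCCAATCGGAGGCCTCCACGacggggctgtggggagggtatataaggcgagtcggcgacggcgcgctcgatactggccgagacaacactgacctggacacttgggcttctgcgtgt

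The element was in 39 of 32851 windows (0.119%), which belong to 37 genes. Of these, 21 were measured and 13 were above background. Highest on array 1 were 5 of the 13, a count that includes Calr and Hspa5, the genes that led to the search. Among all 8125 genes above background, 3140 were highest on array 1, so nothing is read from the 5. The median difference of the 13 between array 1 and the mean of the others was -0.015 log2 units, against -0.005 for all genes above background. The 13 ranged from -0.395, which is Dnajc3, to 0.785, which is Hspa5. Ero1b, an oxidase gene of the endoplasmic reticulum, also lay high at 0.68, while the folding genes Canx and Hsp90b1 hold the element too and differed by -0.09 and -0.02.

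Of the regulators of class I transcription, 16 of 17 were above background, the exception being Ciita, the class II transactivator, with 6.12, 6.27 and 5.95. The RFX factor genes Rfx5, Rfxap and Rfxank, whose products form the complex that NLRC5 joins at class I promoters, had means of 8.14 ± 0.07, 9.09 ± 0.09 and 8.93 ± 0.11. Irf1, an interferon-induced activator of class I genes, had 10.99, 9.82 and 10.04 and was 2.08-fold higher on array 1 than the mean of the others. It did not pass the variance test (limma, unadjusted p = 0.0014, adjusted p = 0.59). The immediate-early genes lay highest on the same array as Irf1, Hspa5 and Calr, with mean deviations of 0.83, -0.43 and -0.40 on arrays 1, 2 and 3, and their part in these values was not tested. Of 12 type I interferon response genes, Irf7, Ifit2, Bst2 and Ddx58 were above background on every array. Highest on array 1 were 3 of the 12, against 34.5% of all genes. Irf7 had 8.27, 8.51 and 8.37, and Ifit1 and Ifit3 were below background on every array.

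Of the class I-like molecules 7 of 14 were above background, beside 40.8% of all genes. Mr1, which presents vitamin B metabolites, had 9.81, 10.49 and 10.42, and the nonclassical heavy chain gene H2-T24 had 7.57, 8.30 and 8.13. Both were lowest on array 1, by 1.56-fold each, and neither passed the variance test (limma, unadjusted p = 0.012 and 0.017, adjusted p = 0.99 for each). Cd1d1, which presents lipids to NKT cells, had 9.35, 9.51 and 9.50, and H2-M3, which presents formylated peptides, was above background on array 1 alone. A further 6 genes of this list lay only on shared probe sets. The one for H2-Q6 and H2-Q8 had 8.46, 7.66 and 8.33, and its high and low cohorts were those of B2m, as they were for the one that lists H2-T9, H2-T22 and H2-T10 (10.13, 9.87 and 9.93). H2-T10 also has a probe set of its own, with 10.14, 9.86 and 9.73, which was highest on array 1 but lowest on array 3. The probe sets for H2-T-ps and H2-T23 (9.59, 9.61 and 9.52), for H2-Q1 and H2-Bl (7.99, 8.09 and 7.91) and for H2-T3 and H2-T18 (6.26, 6.29 and 6.08) were instead highest on array 2 and lowest on array 3, and the last lay below background. Among receptors that bind class I, the coreceptor chains Cd8a and Cd8b1 were above background with means of 13.19 ± 0.14 and 11.96 ± 0.18, and the other 5 measured genes, including Klrd1 and Klrc1, were not.

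**Figure D4:**
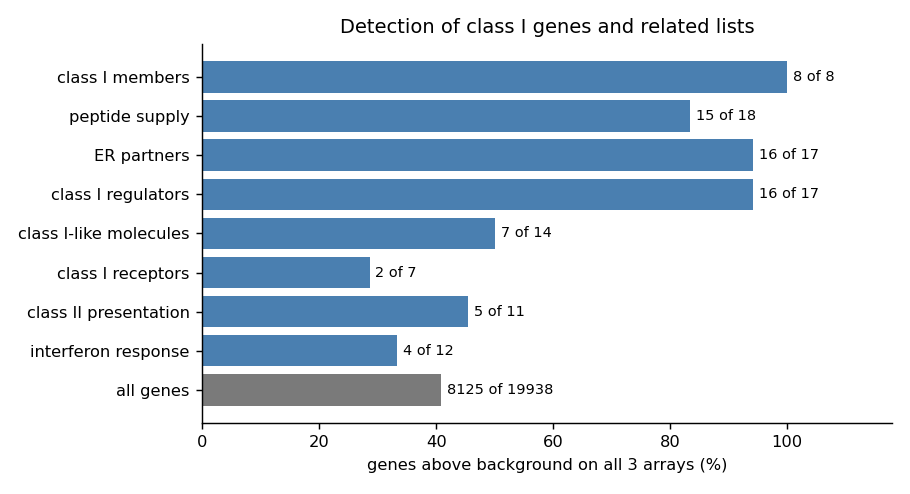
Share of measured genes above background on all 3 arrays (horizontal axis, percent) for the class I genes with a probe set of their own, related gene lists and all genes, with the counts beside each bar. All 8 class I genes passed, against 7 of 14 class I-like molecules, 5 of 11 class II genes and 40.8% of all genes.

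Class II presentation genes, the nearest counterpart, gave 5 of 11 above background on all arrays (45.5%), near the 40.8% of all genes. For class I it was 8 of 8, and no test of this difference was made. The 5 were H2-Ab1, H2-Eb1, H2-Oa, Ctss and Ifi30. The count was 8 without array 2, and 2 with the 99th percentile as the limit. H2-Ab1 had 9.26, 7.91 and 8.50, H2-Aa had 8.44, 6.75 and 7.81, H2-Eb1 had 8.82, 7.77 and 8.40 and the invariant chain gene Cd74 had 8.83, 7.27 and 8.05. All 4 were highest on array 1, as were 34.5% of all genes, and lowest on array 2. Their order was that of B2m and of both shared heavy chain probe sets. None passed the variance test (limma, lowest adjusted p = 0.44, H2-Aa). Mean deviations over the 11 genes were 0.32, -0.33 and 0.012. The median SD was 0.32 for class II and 0.13 for the class I genes, and 0.11 for all genes. These spreads were not tested against each other.

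**Figure D5:**
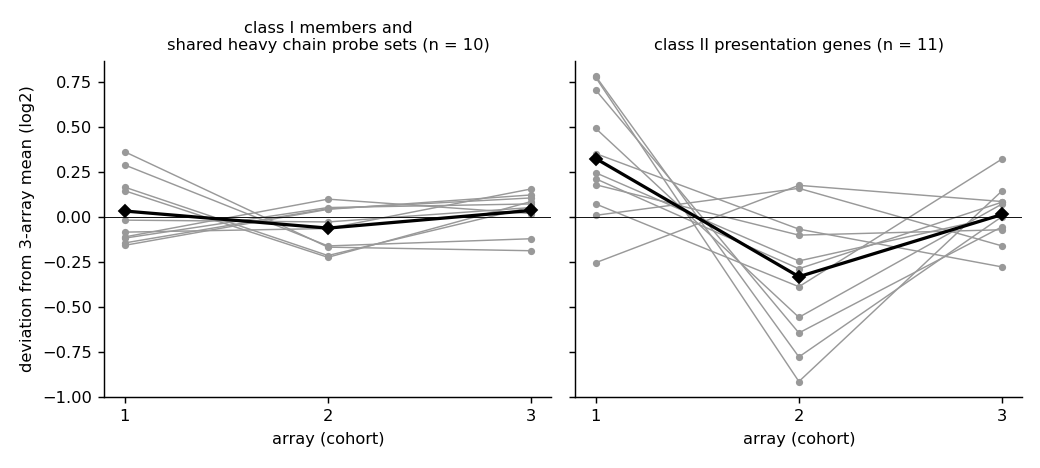
Deviation of the log2 value from the 3-array mean (vertical axis) on each array for the class I genes with the shared heavy chain probe sets (left, 10 entries) and for class II presentation genes (right, 11 genes). Grey lines join the values of a gene and black diamonds are the means, which span from 0.031 to -0.064 on arrays 1 and 2 for class I and from 0.32 to -0.33 for class II.

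Markers of cells that carry much class I or class II also differed between cohorts in part. Summed unlogged signal was 3372, 1903 and 2591 for the 11 class II genes, 2926, 1939 and 2216 for 9 mature T cell genes, 934, 878 and 915 for 10 B cell markers and 1296, 1189 and 1203 for 17 myeloid and dendritic markers, on arrays 1, 2 and 3. The class II and mature T cell sums were highest on array 1 and lowest on array 2, as B2m was. An unlogged sum weighs the brightest genes most. In the mature T cell list these were Cd69 (9.75, 8.74 and 8.94) and Klf2 (9.13, 8.43 and 8.41). Of the 9 genes 8 were highest on array 1, against 34.5% of all genes. The sum is not read as an amount of mature T cells. The sum for the 11 DP genes, 47090, 52690 and 52832, was lowest on array 1. That for 14 thymic epithelial markers, 2008, 2195 and 2312, was also lowest there. Only 3 of these 14 were above background on all arrays, so no cohort order is read from the epithelial sum. Of the mature T cell genes 5 of 9 were above background on all arrays, among them Ccr7, S1pr1 and Klf2, of the B cell markers 1 of 10 (Cd79b), and of the myeloid and dendritic markers 0 of 17. The B cell and myeloid sums thus rest mostly on values below background, and no cohort order is read from them, while Cd79b itself had 8.73, 8.79 and 8.83, lowest on array 1. Cd79a, Ms4a1, Pax5, Csf1r, Itgam, Itgax and Lyz2 were below background on every array. The 4 probe sets that list Igkc with Igkv segments had values up to 7.82 on array 1, 5.74 on array 2 and 6.18 on array 3, and the 2 that list the beta globins had 9.70 and 9.62 on array 1 against 7.28 to 7.46 on the others. Of thymic epithelial markers 3 of 14 were above background on all arrays (Ccl25, Cldn4 and Ly75), with Foxn1 and Psmb11 below it on each, and of NK and innate markers 2 of 10 (Gzma and Sox13). The part of such cells in the class I values was not tested.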

How the data were processed

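RNA from 3 cohorts was hybridised to Affymetrix arrays. The authors deposited 1 table of log2 expression, with the unit inferred from its range of 1.60 to 14.94. Among tools, affy is named in the submitters' processing notes, without its version. How background was corrected and arrays were normalized and summarized is not given in the sources used here. Sorted values of any pair of arrays differ by at most 0.15, so a change in total RNA would not be visible. The labels' protocol describes a formaldehyde step before the sort, and whether it applied to the RNA is unstated.

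Genes were named from the platform annotation, in which 21789 of 35556 probe sets have 1 symbol and 1621 have several. A block of 6612 low-numbered probe sets, all unnamed, was treated as controls and left out. Variances were estimated by limma 3.58.1 (R 4.3.3) with a mean per probe set as the model, and each was set against a robust, level-dependent prior by an F test and Benjamini-Hochberg adjustment over 28944 probe sets. It was tested on simulated data. Other steps used Python 3.11.15, pandas 2.3.3 and Biopython 1.88. With 1 array a cohort, p-values measure only the spread between these samples.

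The members, lists and tests were chosen with earlier results of these data known. The rule for named genes took every member and, of the other lists, the first 4 measured genes, the minority side of the background limit where it held 5 or fewer, and genes past the variance test. Ero1b, Hsp90b1, Dnajc3, Cd69, H2-T10, the shared class I-like probe sets, Igkc and the globins were named after their values were seen. Genes without a probe set of their own were not analysed here unless given as shared. Alternatives were other normalizations, leaving out each array, other background limits, other gene summaries and other priors.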

Additional observations from a re-analysis of the deposited data

How the results depend on the processing

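Of 53 alternative values of the main counts and summaries, 51 stayed within 1.5 times or within the spread between arrays. All 8 class I genes were above background under each alternative run, and 0 passed the limma variance test under any, with 0 to 2 at an unadjusted p under 0.05. The class II count, 5 of 11, was 2 with the 99th percentile as the limit, and leaving out each array in turn gave 5 to 8, the 8 without array 2. The shift of the class I genes, an SD of 0.042, ranged from 0.011 to 0.056. The tolerance for the shift was its own size, so no fall in it could count as a move. The mean deviation on array 1 changed sign, from -0.015 to 0.012, where each gene was the mean of its probe sets, which bears on Nlrc5. Among other marker lists, 5 counts moved by over 1.5 times. The alternative list of other-organ genes was the one already used and was not run apart. No paired analysis was possible because the labels give only 1 group. With 3 arrays each SD is imprecise, so a gene that misses the threshold is not shown to be steady.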
